A study of Homo sapiens with 6 samples.

Results

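The RNAs described are those of 6 genes of homologous recombination. They are the breast cancer susceptibility genes BRCA1, BRCA2 and PALB2, and the DNA nucleases GEN1, EXO1 and DNA2. They were chosen by gene name, and all 6 were found among the 3152 RNAs of the authors' table of RNAs that came down with PD-L1. The study precipitated PD-L1, or nothing specific with its IgG isotype control, from formaldehyde-fixed and sonicated MDA-MB-231 cells, and sequenced the RNA that came down as stranded total RNA libraries. MDA-MB-231 is a human triple-negative breast cancer cell line of mesenchymal character, and 1 line stands here for the whole comparison. No gene was deleted and no agent was given in either group, as far as the labels say. There were 3 PD-L1 and 3 IgG libraries, called repeats in the labels. Nothing in the labels ties a repeat to its own culture, so the p-values cover the spread among these libraries, and that spread may be technical. Less of an RNA in the precipitate and fewer cells holding it cannot be told apart in such bulk libraries.

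Homologous recombination repairs a DNA double-strand break by copying an intact sister molecule. Nucleases first trim the broken ends to single strands, a step called resection, in which EXO1 and the helicase-nuclease DNA2 make the long tracts. BRCA1 works at resection and, through PALB2, brings BRCA2 to the break, where BRCA2 prepares the single strand for the search for a matching sequence. The joined molecules that result, Holliday junctions, can be cut apart by GEN1. EXO1 and GEN1 belong to one family of structure-selective nucleases, with FEN1 and ERCC5. PD-L1, the product of CD274, is best known as a membrane ligand of the immune receptor PD-1.

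Each value is a gene's total peak score in 1 library, as summed by the authors over the peaks they assigned to it. An RNA at 0 had no scored peak in that library. The table holds only RNAs that the authors found at least 5-fold higher with PD-L1, so the direction of every comparison with IgG was fixed by that selection on these same libraries. Scores of the listed RNAs summed to between 123921 and 217732 in the PD-L1 libraries and to between 8353 and 19288 in the IgG libraries. These sums are not sequencing depth, which is unknown. PD-L1 repeat 3 stood apart from the others with the lowest PD-L1 sum. Of 10 mesenchymal breast cancer markers ZEB1 was listed, of 10 luminal epithelial markers CLDN4, and of 6 immune markers 0. In a table selected in this way that neither bears out nor contradicts the label of the line.

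All 6 transcripts were poorer in G and C than the median listed RNA, PALB2 and EXO1 by the least. To show what the most A- and T-rich coding stretch of each nuclease RNA looks like, the 60 coding bases with the fewest G and C within 1 exon are printed, 5′ to 3′ on the coding strand, with G and C in capitals. They were read from the GENCODE 29 transcripts on build GRCh38, whereas the submitters' processing notes name hg19. The positions of the authors' peaks were not used here, and nothing ties these stretches to them.
GEN1, exon 3 of 14, chr2:17761396-17761455, plus strand: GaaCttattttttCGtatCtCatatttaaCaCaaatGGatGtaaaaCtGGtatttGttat
EXO1, exon 10 of 16, chr1:241861406-241861465, plus strand: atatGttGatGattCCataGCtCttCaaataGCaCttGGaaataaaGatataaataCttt
DNA2, exon 15 of 21, chr10:68422820-68422879, minus strand: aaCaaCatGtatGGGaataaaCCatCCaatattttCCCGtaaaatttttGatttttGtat
G and C made up 15 of the 60 bases in GEN1 and 16 of 60 in both EXO1 and DNA2. These are the extremes of each coding sequence, whose GC content was 38.5%, 42.4% and 39.8%, and the lowest such stretch of the median listed coding RNA held 17, so they are not unusual for the table.

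The first question is how each RNA of the resection and junction nucleases compared between the precipitations. GEN1 scored 106.1, 136.1 and 90.5 in PD-L1 repeats 1, 2 and 3, and 0 in all 3 IgG libraries. EXO1 scored 61.2, 72.0 and 34.9 with PD-L1, also against 0 in all 3 IgG libraries. DNA2 scored 143.5, 152.1 and 95.7 with PD-L1, while its IgG scores were 0, 5.14 and 2.83. In all 3 nucleases repeat 2 was the highest PD-L1 library and repeat 3 the lowest, and the groups did not overlap, as in 95.9% of all listed RNAs. GEN1 had a log2 difference of 6.79 ± 0.29 (SE) on the log2(score + 1) scale (limma, Benjamini-Hochberg adjusted p = 5.44e-05) and stood 14th of all listed RNAs by that difference. EXO1 differed by 5.77 ± 0.36 (SE, limma adjusted p = 6.59e-05). DNA2 differed by 5.49 ± 0.71 (SE, limma adjusted p = 0.000676), and its mean PD-L1 score was 49.1 times its mean IgG score. GEN1 and EXO1 have no such ratio, since they were listed at 0 with IgG. Of their own scores only those with PD-L1 added spread to the SE, so their p-values may be too small. The same holds for BRCA1 and PALB2 below, and these p-values do not rank such RNAs against DNA2 or BRCA2. The added 1 makes the scale understate the change of RNAs that score low.

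The BRCA and PALB2 RNAs had smaller log2 differences on this scale, which were not tested against those of the nucleases. The order was not kept with a pseudocount of 0.1 in place of 1, where PALB2 (7.55) and BRCA1 (7.35) exceeded DNA2 (6.79), nor with libraries scaled to equal totals, where they did so too (3.52 and 3.34 against 3.26). BRCA1 and BRCA2 had the widest spread among the PD-L1 repeats relative to their means. BRCA1, a ubiquitin ligase that acts early in the pathway, scored 24.4, 27.9 and 6.20 with PD-L1 and 0 in all 3 IgG libraries. BRCA2, which acts after resection, scored 84.4, 96.4 and 17.7 with PD-L1, while its IgG scores were 3.02, 0 and 5.66. PALB2, the bridge between them, scored 17.6, 13.6 and 26.8 with PD-L1 and 0 in all 3 IgG libraries. The groups did not overlap for any of these RNAs, but repeat 3 was far the lowest PD-L1 library for BRCA1 and BRCA2 and the highest for PALB2. The log2 difference was 4.12 ± 0.58 (SE) for BRCA1 (limma, adjusted p = 0.00093). For BRCA2 it was 4.17 ± 0.95 (SE, limma adjusted p = 0.00601), and the ratio of mean scores was 22.9. For PALB2 it was 4.29 ± 0.34 (SE, limma adjusted p = 0.000112).

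**Figure D1:**
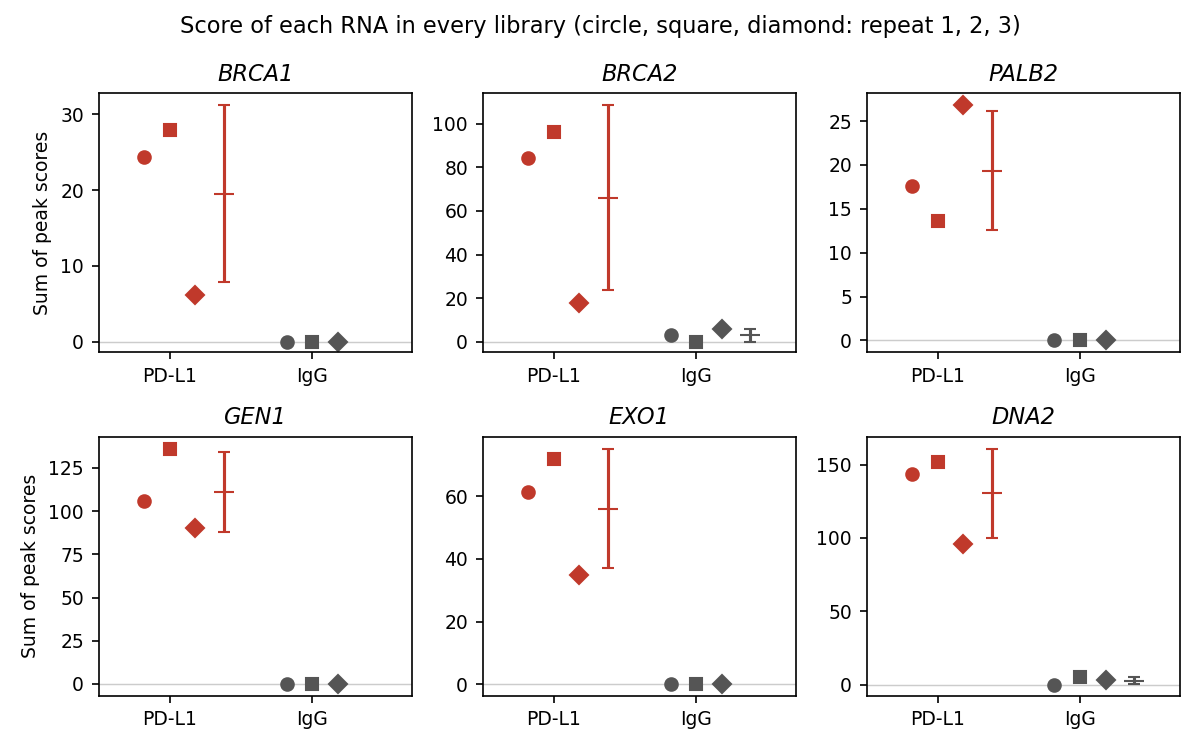
Sum of peak scores (vertical axis, a separate linear scale for each RNA) in the 3 PD-L1 libraries (red) and 3 IgG libraries (grey), with the mean ± SD beside the points where the mean is above 0. All PD-L1 points lie above all IgG points for each of the 6 RNAs, and the diamond of repeat 3 is the lowest PD-L1 point except for PALB2, where it is the highest at 26.8.

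All 6 RNAs passed the limma threshold of adjusted p under 0.05 as higher with PD-L1, as did 97.7% of all listed RNAs. All 6 had every PD-L1 score above every IgG score, against 95.9% of the table. Shares this close to the table's own say nothing particular about these genes. An exact 2-sided permutation test over the 6 libraries gave p = 0.1 for each gene, the smallest that 3 against 3 allows. A total of 4 of the 6 were at 0 in all 3 IgG libraries, against 31.7% of the table. The median log2 difference of the 6 was 4.89, against 3.42 over all listed RNAs (quartiles 2.82 and 4.23). By that difference, as deposited and with 1 added to each score, GEN1, EXO1 and DNA2 lay at percentiles 99.6, 96.7 and 95.0 of listed RNAs. BRCA1, BRCA2 and PALB2 lay at percentiles 72.0, 73.3 and 76.7. DNA2 did not stay above PALB2 and BRCA1 with a pseudocount of 0.1 or with libraries scaled to equal totals.

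The IgG scores of BRCA2 and DNA2 that were above 0 were within 3 times the lowest that the libraries hold. The smallest score above 0 was 2.42, 2.06 and 2.06 in IgG repeats 1, 2 and 3. BRCA2 was at 1.25 times that smallest score in IgG repeat 1 and 2.75 times in repeat 3, and DNA2 at 2.50 times in repeat 2 and 1.37 times in repeat 3. Whether the number of reads accounts for the scores of 0 was not tested. IgG repeat 1 had 68.2% of listed RNAs at 0, against 45.7% and 44.3% in repeats 2 and 3. When the libraries were scaled to equal totals of listed scores, the median log2 difference of the table moved from 3.42 to 1.76, and BRCA2 and DNA2, the RNAs with IgG scores above 0, no longer passed. BRCA2 was then at 1.55 ± 1.55 (SE, limma adjusted p = 0.492), and DNA2 at 3.26 ± 1.30 (SE), with an adjusted p of 0.125. The other 4, all at 0 with IgG, still passed after rescaling, as did 31.4% of the table. A score of 0 stays 0 at any scaling, so the IgG side of these 4 could not move. Their passing therefore does not set them apart from BRCA2 and DNA2. GEN1 was then at 5.96, EXO1 at 4.95, PALB2 at 3.52 and BRCA1 at 3.34.

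**Figure D2:**
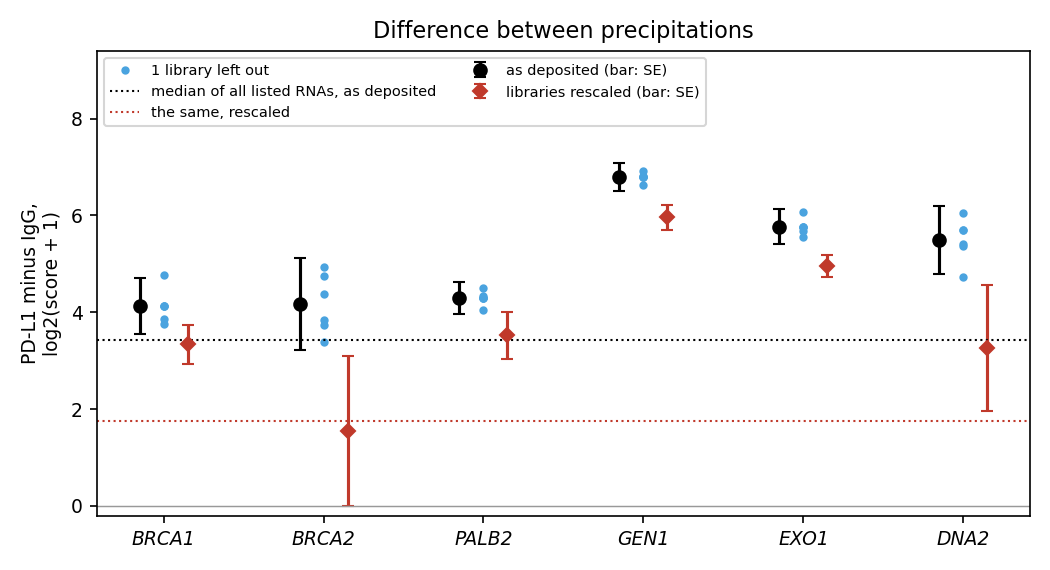
Difference between PD-L1 and IgG on the log2(score + 1) scale (vertical axis) for each RNA as deposited (black, ± SE), with 1 library left out in turn (blue) and with rescaled libraries (red, ± SE), and the median of all listed RNAs as dotted lines. GEN1 is highest at 6.79, and BRCA2 falls from 4.17 to 1.55 with rescaled libraries, below the rescaled median of 1.76.

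Levels of different genes were compared per length, here as PD-L1 score per kb of the principal transcript in GENCODE 29. Whether peak scores grow with length was not tested. No library of unprecipitated RNA was among those used, so a level per kb cannot be told apart from the abundance of the RNA in the cells. DNA2 had the highest level per kb, with 34.1, 36.1 and 22.7 in PD-L1 repeats 1, 2 and 3. EXO1 followed with 17.6, 20.7 and 10.0 per kb, and GEN1 with 10.8, 13.8 and 9.18. BRCA2 had 7.04, 8.04 and 1.48 per kb, PALB2 4.39, 3.40 and 6.69, and BRCA1 3.36, 3.84 and 0.853. The 3 values of DNA2 lay above those of EXO1, and those of GEN1 above those of BRCA2, without overlap. EXO1 and GEN1 overlapped, as did BRCA2 and PALB2, and PALB2 and BRCA1, so the order within those pairs is not set by these libraries. With 3 values a gene no exact permutation p can fall below 0.1, so no test was made. The median listed coding RNA had 8.76 per kb. The mean of each nuclease lay above it, and the means of BRCA2 (5.52), PALB2 (4.83) and BRCA1 (2.69) lay below it.

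The place of GEN1 depends on which length is used, because its longest transcript of 9854 bases has a 3′ untranslated region of 7005 bases. Per kb of its shorter annotated transcript, of 6367 bases, its scores were 16.7, 21.4 and 14.2, close to those of EXO1. Per kb of coding sequence GEN1 (40.7 ± 8.51, SD, n = 3) and DNA2 (41.0 ± 9.56) overlapped, and both lay above EXO1 (22.1 ± 7.52) without overlap. On all these scales each nuclease had a higher mean than BRCA2, PALB2 and BRCA1. The same held per exon and per 10 kb of genomic span, but there the values of EXO1 and BRCA2 overlapped. Per 10 kb of genomic span the mean of BRCA2 (7.80) lay above that of the median listed coding RNA (6.93).

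**Figure D3:**
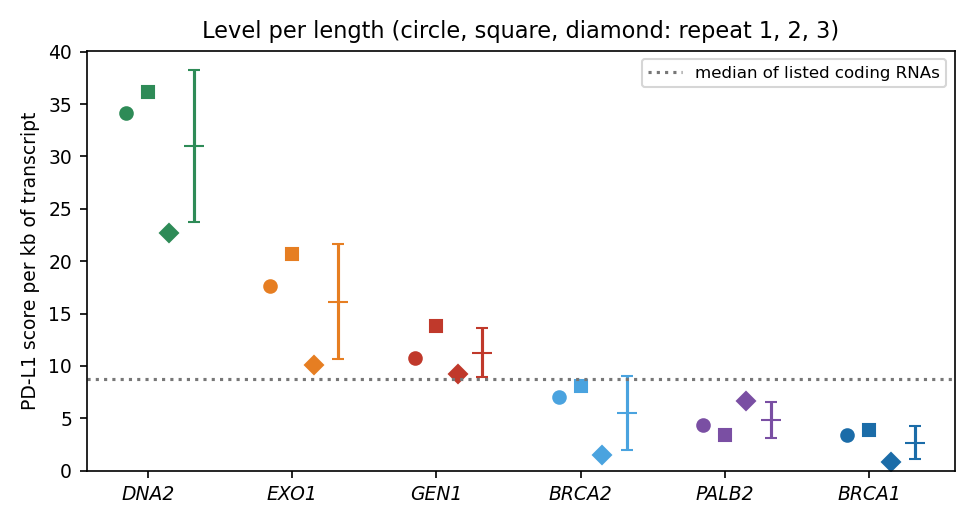
PD-L1 score per kb of principal transcript (vertical axis) for each RNA in the 3 PD-L1 libraries, with the mean ± SD beside the points and the median of listed coding RNAs, 8.76, as a dotted line. The points of the 3 nucleases lie above the dotted line, from 9.18 to 36.1, and those of BRCA2, PALB2 and BRCA1 below it.

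The repeats divided the 6 RNAs in another way. BRCA1 in PD-L1 repeat 3 was at 23.7% of the mean of repeats 1 and 2, and BRCA2 at 19.6%. EXO1 was at 52.4%, DNA2 at 64.7% and GEN1 at 74.7%, and the median of all listed RNAs was 71.5%. PALB2 was at 172%. BRCA1 and BRCA2 thus lay at percentiles 9.79 and 5.38 of listed RNAs by this ratio and PALB2 at 91.4, on either side of the nucleases, which lay at 33.0 to 51.9. Repeat 3 was below both other repeats in 5 of the 6, against 63.8% of the table, and above both in 1, against 23.9%. The BRCA1 score in repeat 3, 6.20, was only 1.67 times the smallest score above 0 in that library, 3.72. The comparison is of 1 library against 2, so no test was made. Whether repeat 3 differed in cells, precipitation or sequencing was not tested.

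Ratios of scores within a library need no scaling between libraries. The ratio of BRCA2 to BRCA1 scores was 3.45 in each of PD-L1 repeats 1 and 2, and 2.85 in repeat 3. The ratio of PALB2 to BRCA1 was 0.72 and 0.487 in repeats 1 and 2, and 4.32 in repeat 3. Per kb of transcript PALB2 was 1.31, 0.884 and 7.85 times BRCA1, and 0.624, 0.423 and 4.53 times BRCA2. The ratio of BRCA2 to BRCA1 thus moved little, while PALB2, whose protein joins theirs, was above both in repeat 3 and below BRCA2 in the other repeats. The repeat 3 ratios to BRCA1 rest on its score of 6.20, which was near the lowest of that library. Among the nucleases DNA2 was 1.35, 1.12 and 1.06 times GEN1, and EXO1 was 0.576, 0.529 and 0.385 times GEN1. Without repeat 3 the log2 difference from IgG was 4.76 for BRCA1, 4.93 for BRCA2 and 4.04 for PALB2, and all 6 RNAs passed in limma, as did 90.6% of the table.

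**Figure D4:**
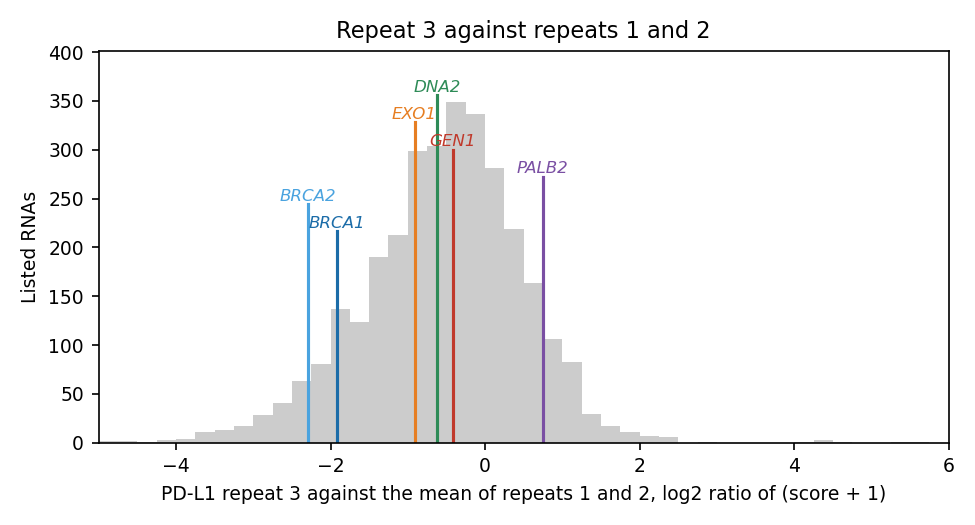
Log2 ratio of PD-L1 repeat 3 to the mean of repeats 1 and 2, each with 1 added to the score (horizontal axis), for all listed RNAs (grey, number of RNAs on the vertical axis), with the 6 RNAs as coloured lines whose heights only separate the names. BRCA2 and BRCA1 lie in the lower tail at -2.29 and -1.92, PALB2 in the upper part at 0.74, and the nucleases near the median of -0.46.

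The transcripts share features that the choice by name did not use, described after their values were seen. Of the 3129 listed RNAs with a coding transcript in GENCODE 29 the median had a coding sequence of 1749 bases, 12 exons and a GC content of 43.7%. All 6 had a longer coding sequence, from 2538 bases in EXO1 to 10254 in BRCA2. All 6 had more exons, from 13 in PALB2 to 27 in BRCA2, and a lower GC content, from 36.3% in BRCA2 to 42.8% in PALB2. A total of 19.2% of listed coding RNAs lay on the same side of all 3 medians. That share covers only the features on which all 6 agreed. Genomic span and transcript length were read too and were not shared. By genomic span PALB2, GEN1 and EXO1 lay below the median, at percentiles 38.3, 35.6 and 41.7. By transcript length EXO1 lay below it, at percentile 41.3. BRCA2 and DNA2 (37.6%) were the poorest in G and C, at percentiles 4.94 and 10.5 of listed coding RNAs. BRCA1, EXO1 and PALB2 lay between percentiles 38.7 and 44.4, and GEN1 at 25.4 with 39.9%. The 3 nucleases had the shortest coding sequences of the 6 (2538 bases in EXO1, 2724 in GEN1 and 3180 in DNA2, against 3558 in PALB2 and 5652 in BRCA1) and the largest log2 differences as deposited. The part of length in those differences was not tested.

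**Figure D5:**
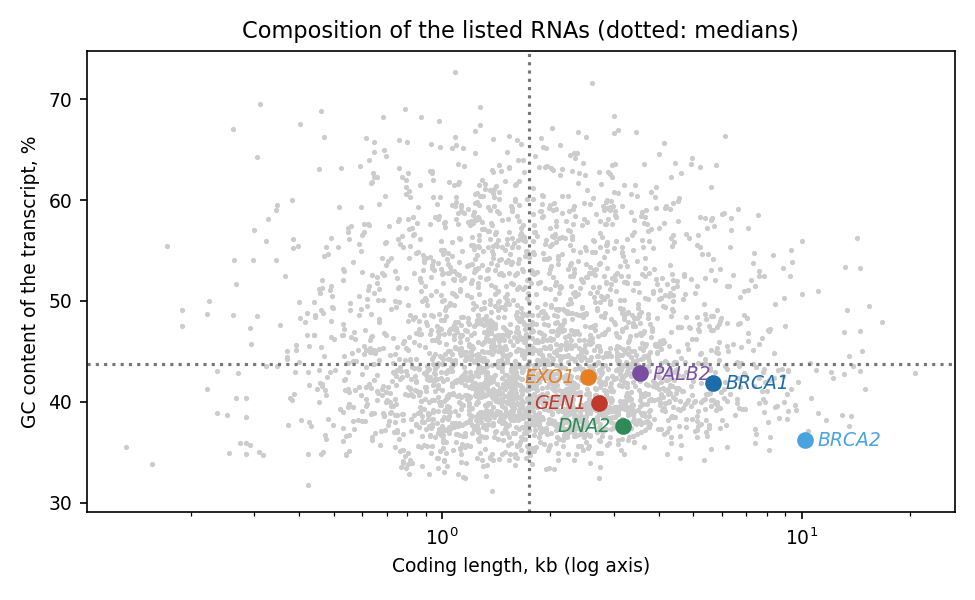
Coding length in kb (horizontal log axis) and GC content of the transcript in percent (vertical axis) for the 3129 listed RNAs with a coding transcript (grey) and the 6 RNAs (coloured), with the medians as dotted lines. All 6 lie to the right of 1749 bases and below 43.7%, with BRCA2 at 36.3%.

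Other genes overlap some of these. BRCA1 overlaps the long non-coding RNA gene NBR2 on the opposite strand, and PALB2 an antisense gene, neither of which is in the table. On its own strand BRCA1 overlaps the long non-coding RNA gene AC060780.1 by 21878 bases, and BRCA2 the pseudogene IFIT1P1 by 1449 bases. Neither is in the table, and strand could not separate them from BRCA1 and BRCA2. GEN1 lies within the outer limits of SMC6, a gene of the SMC5/6 complex on the opposite strand, but the principal transcripts of GEN1 and SMC6 share 0 bases. SMC6 was listed too. It scored 277.7, 298.4 and 127.4 in the PD-L1 repeats, and 6.65, 17.99 and 14.66 in the IgG repeats. The libraries were stranded, per the labels' protocols, but whether peaks were assigned by strand is not given in the sources used here, so reads of such partners may not be told apart. The same holds for BRCA1, which has a partial pseudogene copy beside it.

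Other genes of homologous recombination were read from 5 lists ordered by role. In all, 28 of 64 genes were listed, and all 28 were higher with PD-L1 in limma, against 97.7% of the table. Their median log2 difference was 3.68, between that of the 6 RNAs (4.89) and that of the table (3.42). They ran from 2.00 to 6.88 and so overlapped the 6 RNAs. POLQ (6.88) was above GEN1, and BRIP1 (6.06) above EXO1 and DNA2. In all, 8 of the 28 were at 0 in all 3 IgG libraries, against 31.7% of the table. After rescaling 9 of the 28 were higher and 1 was lower, ZSWIM7, with a log2 difference of -1.15, against 31.4% higher and 1.9% lower in the table. Rescaled scores are shares of a library's listed total, so lower there is not a lower score. As deposited ZSWIM7 was higher with PD-L1, with a log2 difference of 2.45. The mediators and partners of BRCA1 had 9 of 20 genes in the table and a median of 3.30. ZSWIM7 had the highest PD-L1 score there at 554 ± 215 (SD, n = 3) against a mean of 97.4 with IgG. BRIP1, the helicase that binds BRCA1, scored 286 ± 113 against 4.8, and the translocase RAD54B 91.4 ± 34.2 against 9.34. BARD1, the obligate partner of BRCA1 in its ubiquitin ligase and named outside the rule, scored 14.34, 17.04 and 11.3 against 0, 2.57 and 0. Its repeat 3 score was 72.0% of the mean of the others, against 23.7% for BRCA1.

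End resection had 7 of 16 genes in the table with a median of 3.72, led by the MRE11 complex subunit RAD50 (84.0 ± 47.5 with PD-L1, SD, n = 3). The topoisomerase TOP3A (83.0 ± 7.05) and RBBP8, which encodes the resection starter CtIP (63.8 ± 14.01), followed. RAD50 scored 105.8 and 116.6 in PD-L1 repeats 1 and 2 and 29.5 in repeat 3. Junction resolution and flap nucleases had 2 of 10 in the table, ERCC5 (82.8 ± 9.25) and ERCC4 (8.71 ± 3.07), so besides GEN1 and EXO1 their family was represented by ERCC5. Helicases and antirecombinases had 6 of 11 with a median of 4.18, led by the polymerase POLQ (189 ± 68.9), MCM8 (150.2 ± 34.5) and the antirecombinase FBXO18 (104.2 ± 59.97). Inhibitors of resection, which oppose EXO1 and DNA2, had 4 of 7 with a median of 3.32, led by RIF1 (258 ± 147), TP53BP1 (98.0 ± 8.66) and the helicase HELB (29.3 ± 9.36). Repeat 3 was below both other PD-L1 repeats in 24 of the 28 genes, against 63.8% of the table. It was above both in 2 of the 28, against 23.9% of the table. The lowest repeat 3 scores were 15.04% of the mean of the others in the helicase HELQ, named outside the rule, 25.3% in FBXO18, 26.0% in RIF1 and 26.5% in RAD50. These are the extremes of the 28, of which 5 were under 40% and 1 was at or under the share of BRCA1. The lower quartile of all listed RNAs was 42.9%, so such low shares are not particular to these genes.

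The listed RNAs most like each of the 6 were found by the smallest Euclidean distance of log2(score + 1) over the 6 libraries. For BRCA1 they were PYROXD1, KIZ and COG2 (distances of 0.13 to 0.21), and for PALB2 MAML2, FAHD2A and MICAL1 (0.21 to 0.24). GEN1 was nearest to RUFY2, to FANCL, the ubiquitin ligase of the Fanconi anaemia core complex, and to TEKT2 (0.20 to 0.38). EXO1 was nearest to ULK4, ZNF236 and VRK2 (0.11 to 0.23). DNA2 was nearest to HELZ, to ORC2, a subunit of the origin recognition complex, and to CWF19L2 (0.35 to 0.74). BRCA2 had no RNA as close, the nearest being AEBP2, TMEM44 and HIPK1 (0.92 to 1.31).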

How the data were processed

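Sums of peak scores per gene and library were deposited by the authors for 3152 RNAs, in 3 PD-L1 and 3 IgG libraries, per the file headers. Per the submitters' processing notes, HOMER 4.8.3, TopHat2 2.0.14 and build hg19 were used in roles not specified. Settings of the peak calls and read depth are unknown, so values carry no counting interval. The authors' deposited GO table gives p-values, which were copied. The planned test for scores applied: limma 3.58.1 in R 4.3.3 on log2(score + 1) over all listed RNAs, without a low-value filter. Benjamini-Hochberg adjustment was made at 0.05. The fit was tested on simulated normal log2 values, which lack the many IgG scores of 0 seen here. That test therefore does not cover RNAs at 0 with IgG. Transcript lengths and sequences came from GENCODE 29. The transcript was the principal isoform, then the one with the longest coding sequence. Alternatives were 2 pseudocounts, scores of 0 set to the smallest score, rescaled libraries, a low-score filter, a replicate block, a trended prior and each library left out. Named genes were the 6 members, their 3 nearest RNAs and the 3 highest PD-L1 scores of each role list. Members and lists were chosen with earlier results of these data known. A further gene of the role lists is not reported here.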

Additional observations from a re-analysis of the deposited data

How the results depend on the processing

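Of 78 log2 differences of the 6 RNAs under 13 alternatives, 76 stayed positive and past the threshold in limma. The other 2 came from rescaled libraries, where BRCA2 was at 1.55 (adjusted p = 0.492 in limma) and DNA2 at 3.26 (0.125), and where 990 listed RNAs were higher and 60 lower, against 3078 and 0. Both have scores above 0 in some IgG libraries, and the IgG sums are the smallest, so rescaling multiplies those scores most. IgG scores of 0 cannot change in this way. Lower after rescaling means a smaller share of a library's listed total, not a lower score as deposited. With a library left out the log2 difference was 3.76 to 4.76 for BRCA1, 3.38 to 4.93 for BRCA2, 4.04 to 4.51 for PALB2, 6.63 to 6.92 for GEN1, 5.56 to 6.07 for EXO1 and 4.73 to 6.04 for DNA2, and 2730 to 3032 listed RNAs were higher. The size depends on the pseudocount, most for RNAs at 0 with IgG. With pseudocounts of 0.1 and 5 the log2 difference was 7.35 and 2.15 for BRCA1, 5.43 and 2.97 for BRCA2, 7.55 and 2.25 for PALB2, 10.1 and 4.52 for GEN1, 9.07 and 3.56 for EXO1 and 6.79 and 4.18 for DNA2. After rescaling, repeat 3 against repeats 1 and 2 changed sign for GEN1 (log2 ratio 0.35 against -0.42) and DNA2 (0.15 against -0.62). BRCA1 (-1.15), BRCA2 (-1.51) and PALB2 (1.43) kept their sides. The labels do not say whether repeat numbers pair the samples. Deviations of same-numbered libraries correlated at -0.12, 0.071 and -0.079 across RNAs, and those of other pairs at -0.11 to 0.14. With 3 libraries a group and many IgG scores at 0, these values cannot settle it. With a replicate block 3091 RNAs were higher, and the adjusted p in limma rose to 0.0116 for BRCA2, the highest of the 6. Because the depth is unknown, a score of 0 cannot be given an upper limit.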

Other observations

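In the authors' deposited table of Gene Ontology terms, DNA recombination was counted with 73 listed RNAs of 225 genes in the term (p = 1.7e-05), and DNA repair with 157 of 489 (p = 2.59e-14). Of the 6 RNAs, 5 are on the authors' list of 207 DNA damage genes. DNA2 is not on it. Per kb of transcript DNA2 had the highest PD-L1 score of the 6, at 31.0 ± 7.23 (SD, n = 3), but GEN1 was first per exon and per 10 kb of genomic span.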
